A study of Mus musculus with 2 samples.

Results

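Complement components and receptors were followed through single-cell RNA profiles of sorted brain myeloid cells. The 9 genes were chosen by symbol: C1qa, C1qb, C1qc, C3, C3ar1, C5ar1, Cfp, Itgam and Itgb2, out of 27998 genes in the count matrices. All 9 were found, on 10 rows, because the symbol Itgam stands on 2 of them. The cells came from the brains of adult wild-type C57BL/6J mice and were sorted as CD11b+/CD45+ after papain dissociation, removal of myelin and exclusion of dead cells, then profiled by droplet sequencing (10x Genomics). The CD library pooled 4 mice kept on control diet for 19 days. The Repop D5 library pooled 6 mice given PLX5622 for 14 days and put back on control diet for the next 5 days. PLX5622 blocks Csf1r, a receptor that microglia need to survive. Itgam encodes CD11b itself, so 1 of the 9 genes encodes a protein of the sort gate, and Ptprc encodes CD45, the other protein of that gate.

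Complement is a set of secreted proteins that tag targets for removal and release signalling peptides. C1q, built from the chains encoded by C1qa, C1qb and C1qc, starts the classical pathway, which converges with the other pathways on cleavage of C3. Microglia are known as a main source of C1q in the brain, and through complement receptor 3, the pair of Itgam and Itgb2, they recognise and take up material tagged with C3 fragments, synapses among it.

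In GENCODE M21 (mm10, GRCm38) the 3 C1q genes lie side by side on the minus strand of chromosome 4, within 18.7 kb. C1qa spans 136895917 to 136898803, C1qc 136889804 to 136893065 and C1qb 136880129 to 136886187. C3 lies on chromosome 17 (57203970 to 57228136), C3ar1 on chromosome 6 (122847138 to 122856161) and C5ar1 on chromosome 7 (16246743 to 16259540), all on the minus strand. Cfp is on the minus strand of chromosome X (20925454 to 20931555). The integrin genes lie on the plus strand, Itgam on chromosome 7 (128062640 to 128118491) and Itgb2 on chromosome 10 (77530252 to 77565708). The second row with the symbol Itgam carries the identifier of Gm49368 in that annotation, a protein-coding gene at 128062683 to 128128160 on the same strand that overlaps Itgam. How reads shared by overlapping genes were counted is not given in the sources used here, so the level of Itgam is uncertain, and the second row is reported apart.

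Upstream sequences are shown for C1qb and C1qc, 2 chain genes whose RNA balance differed between the libraries, and for Cfp, the gene with the highest ratio. They are from RefSeq (GRCm38.p6), which matched 7 of the 9 genes by symbol; C1qa and Itgb2 were not matched. Each runs 5′ to 3′ on the gene's minus strand. Capitals mark TGCTGA, a MAF-type motif, and GAGGAA, a PU.1-type motif, or its reverse complement TTCCTC. The windows are chr4:136886201-136886450 for C1qb, chr4:136893066-136893164 for C1qc and chrX:20931556-20931805 for Cfp.
C1qb: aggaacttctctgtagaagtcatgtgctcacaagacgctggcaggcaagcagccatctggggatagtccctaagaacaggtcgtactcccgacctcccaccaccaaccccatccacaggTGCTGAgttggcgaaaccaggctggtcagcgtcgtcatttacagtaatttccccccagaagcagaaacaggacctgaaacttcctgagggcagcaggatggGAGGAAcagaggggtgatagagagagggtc
C1qc: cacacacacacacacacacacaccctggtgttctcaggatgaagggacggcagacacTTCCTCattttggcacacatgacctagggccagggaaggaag
Cfp: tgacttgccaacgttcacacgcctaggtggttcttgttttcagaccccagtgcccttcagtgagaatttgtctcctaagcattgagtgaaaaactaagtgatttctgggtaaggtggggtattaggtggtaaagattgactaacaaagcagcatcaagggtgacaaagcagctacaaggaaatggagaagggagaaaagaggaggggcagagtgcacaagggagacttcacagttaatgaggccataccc
The C1qc window shown is the part, 99 bases long, of the searched window that lies ahead of both the RefSeq start and the GENCODE start. In the search itself, both strands of the 250 bases before each RefSeq start were read for both of these motifs and for 4 others. These were TGANTCA, the AP-1 motif, CACGTG, known as an E-box, TATAAA, a core promoter element, and an interferon regulatory factor motif. GAGGAA stood before C1qb, C1qc and Itgam, 3 of 7 genes, against 23.3% of 32851 promoters. TGCTGA stood before C1qb, C3, C3ar1 and C5ar1, 4 of 7, against 16.1% of promoters. C3ar1 also held TGANTCA, found in 6.75% of promoters, and TATAAA, found in 12.4%. The interferon regulatory factor motif and CACGTG, in 2.98% and 6.02% of promoters, were in none of the 7 windows, and the Cfp window held none of the 6 motifs. A match is a run of letters and describes these windows only.

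Each group is a single library, so differences between groups have no test and the spread between mice is not known. Intervals at 95% reflect counting error alone or, for shares of cells, the drawing of cells within 1 library. A gene called "higher" or "lower" is so in Repop D5 relative to CD. A UMI (unique molecular identifier) stands for 1 captured RNA molecule, and CPM is a gene's UMI count scaled to a common library total. The retained cells were 609 of 609 in CD, with 6055886 UMIs and a median of 5982 per cell, and 553 of 585 in Repop D5, with 11037921 UMIs and a median of 16226. The median cell of Repop D5 thus held 2.71 times the UMIs of the median CD cell, and mitochondrial (mt-) genes gave a median of 4.78% of its UMIs, against 2.00% in CD. A scaling by the trimmed mean of gene ratios raised every log2 ratio by 0.46 over retained cells and by 0.48 over microglia-like cells. Group, depth and library are one and the same here and cannot be told apart. All 12 microglia markers reached 10 CPM in both libraries.

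A gene was counted as higher or lower when it had 10 CPM in 1 library, a ratio of at least 1.5 or its inverse, and an interval clear of 1. Of the 9 genes, 8 were measured at that level and C3 was not. Cfp and Itgb2 were higher, 2 of 8, where 16.8% of 8463 genes were. The C1q chain genes were lower, 3 of 8, where 42.1% of all genes were, so a lower level was common in this library as a whole. C3ar1, C5ar1 and Itgam were neither. The median log2 ratio, with 1 CPM added to each level, was -0.42 over the 8 genes and -0.38 over all genes measured. Under the trimmed-mean scaling Cfp and Itgb2 were again higher, beside 30.2% of genes, and 0 of the 8 were lower, beside 21.7%.

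Many comparisons below use cells of clusters named microglia-like, 412 in CD and 498 in Repop D5, from a clustering that left the complement genes out. That name went to clusters without leading markers of another class, since microglia markers were present in every cluster. Those of CD lay in a cluster led by Lag3 and Ecscr (231 cells) and one led by Mlph and Adgrg1 (177 cells). Those of Repop D5 lay in 4 others. The largest was led by cell-cycle genes such as Hist1h2ap and Cenpe (206 cells). The others were led by Ch25h and Ass1 (173), by Tnf and Dusp2 (63), and by the interferon-induced Ifit3 and Rtp4 (55). Only 5 cells of the class fell in a cluster of the other library. Such clusters may reflect the library they came from rather than a state of the cells. In this class Cfp and Itgb2 were higher (17.5% of 8417 genes were) and the 3 C1q genes lower (40.2% were). Summed microglia markers stood at 33625 CPM in the CD cells of this class and at 13746 CPM in those of Repop D5, and their part in the results was not tested.

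**Figure D1:**
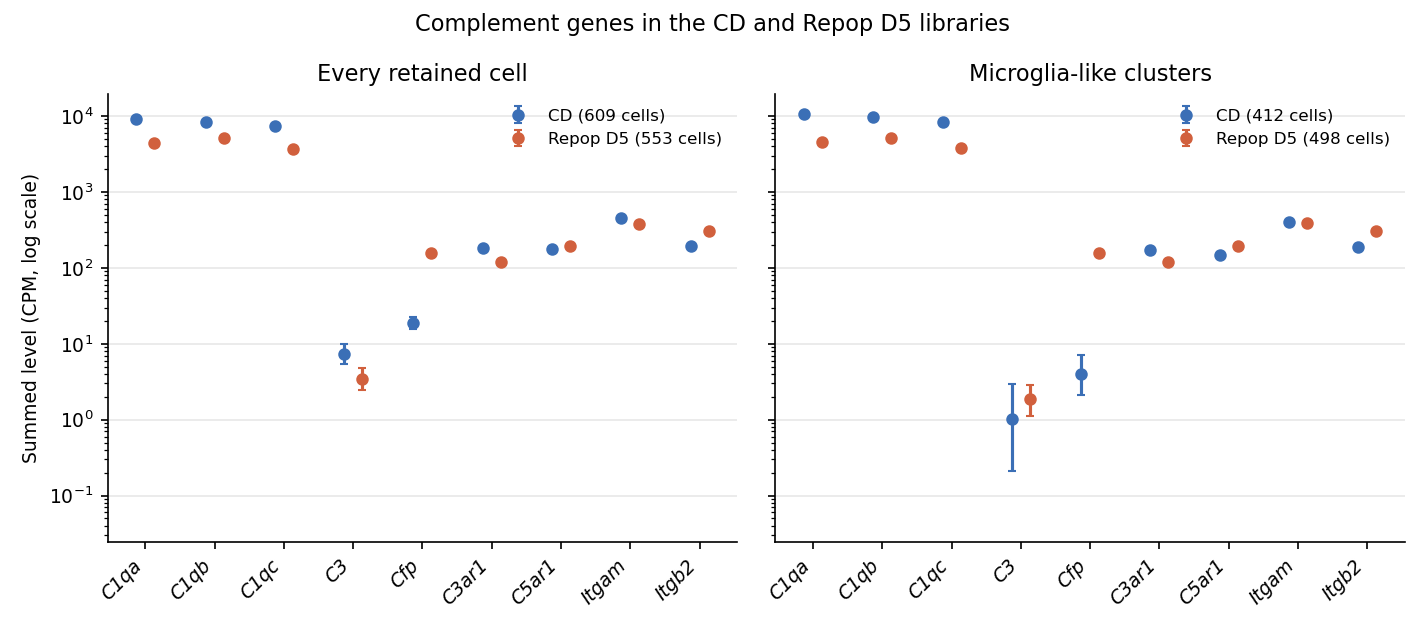
Summed level of each complement gene (CPM, log axis) in the CD library (blue) and the Repop D5 library (orange), over every retained cell (left) and over microglia-like clusters (right). Points are sums over cells and bars are exact Poisson 95% intervals; Cfp stands at 4.05 CPM for CD and 159 CPM for Repop D5 in microglia-like cells, while C1qa goes from 10553 to 4497 CPM.

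The C1q chains gave the most UMIs of the 9 genes in both libraries, and their share of the RNA was lower in Repop D5. C1qa, encoding the A chain, stood at 9099 CPM in CD against 4447 CPM in Repop D5, a level 2.05-fold lower (95% interval 2.02 to 2.07). C1qb, encoding the B chain, stood at 8333 and 5109 CPM, 1.63-fold lower (1.61 to 1.65). C1qc, encoding the C chain, stood at 7381 and 3680 CPM, 2.01-fold lower (1.98 to 2.03). All 3 chain genes were thus high in CD and lower in Repop D5 as a share of RNA, C1qb by the smallest factor. Within microglia-like cells the factors were 2.35 for C1qa (10553 to 4497 CPM), 1.86 for C1qb (9584 to 5149 CPM) and 2.22 for C1qc (8311 to 3736 CPM).

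These differences depended on the scale. Counted as UMIs per cell, C1qa had a mean of 90.5 in CD and 88.8 in Repop D5, and C1qc 73.4 and 73.5. C1qb had 82.9 UMIs per cell in CD and 102 in Repop D5. In microglia-like cells the mean UMIs per cell were higher in Repop D5 for each chain, 75.8 against 92.9 for C1qa, 68.9 against 106 for C1qb and 59.7 against 77.2 for C1qc. C1q thus took a smaller share of a larger count. More RNA per cell and more efficient capture cannot be told apart in these libraries. Under the trimmed-mean scaling over retained cells the ratios, Repop D5 over CD, were 0.671 for C1qa, 0.841 for C1qb and 0.684 for C1qc, all below 1 and none past the 1.5-fold limit. In microglia-like cells that scaling gave 0.594, 0.748 and 0.626, so that C1qa and C1qc passed the limit (20.1% of all genes were lower there) and C1qb did not.

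The lower C1q share was seen cell by cell. In microglia-like cells of CD the 3 chains together made up a median of 2.97% of a cell's UMIs (quartiles 2.63 and 3.30, lowest 0.141, highest 4.65). In Repop D5 the median was 1.40% (1.12 and 1.69, lowest 0.427, highest 3.69). The ranges overlapped, but only 3 of 498 Repop D5 cells (0.602%) reached the CD median, and 11 of 412 CD cells (2.67%) lay below the Repop D5 median. After thinning every cell to 3000 UMIs the mean was 88.4 C1q UMIs per cell in CD and 42.9 in Repop D5. The coefficient of variation was 22.3% in CD and 32.0% in Repop D5, and the variance was 4.40 times the mean in both, so the relative spread was wider where the level was lower.

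**Figure D2:**
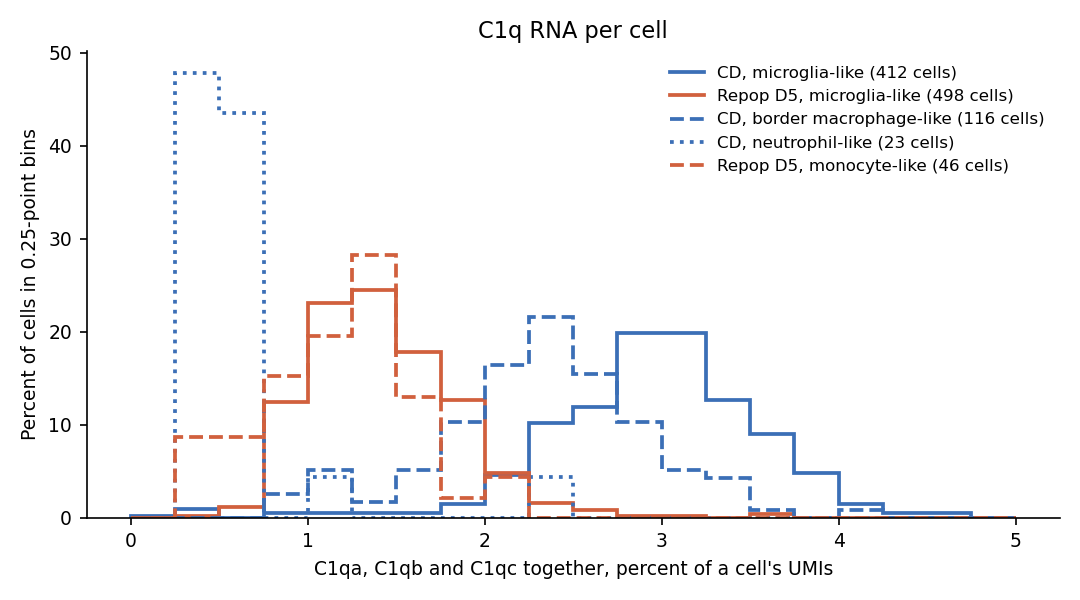
Distribution over cells of the summed C1qa, C1qb and C1qc UMIs, as a percent of each cell's UMIs (x axis, bins of 0.25 points) against the percent of cells in each bin (y axis), for CD (blue) and Repop D5 (orange) cells by class. The microglia-like medians are 2.97% in CD and 1.40% in Repop D5, and neutrophil-like CD cells have a median of 0.502%.

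C1qa stood higher in each CD microglia-like cluster than in each of Repop D5. The share of all genes separated in this way was not computed, and 40.2% of genes were lower in this class. The CD cluster led by Lag3 had 11895 CPM and that led by Mlph 9736 CPM. Among the Repop D5 clusters the interferon-induced one had the most, 5640 CPM (5442 to 5843), followed by the Ch25h cluster with 5100 (5021 to 5180). Next came the cell-cycle cluster with 4160 (4105 to 4215) and the Tnf cluster with 3929 (3825 to 4036). Each step in that order was larger than counting error, which leaves out the spread between cells. The interferon-induced cluster was also the shallowest, with a median of 9009 UMIs per cell over its 56 cells against 15772 to 22215 in the other 3. Across cells the summed C1q of thinned cells was lower in cells with more UMIs before thinning, with Pearson's r = -0.20 over 403 CD cells and -0.35 over 498 Repop D5 cells, and the part of depth in the order of clusters was not tested.

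The balance between the chains also differed, and this measure needs no scaling between libraries. In CD, C1qa gave 36.7% of the C1q UMIs, C1qb 33.6% and C1qc 29.7%. In Repop D5 the order was changed, with C1qb at 38.6%, C1qa at 33.6% and C1qc at 27.8%. The ratio of C1qb to C1qa UMIs was 0.916 in CD (0.905 to 0.927) and 1.15 in Repop D5 (1.14 to 1.16), a factor of 1.25. This factor ranged from 1.24 to 1.29 over 11 other settings. Among these, the trimmed-mean scaling and the totals without mt- and ribosomal protein genes cannot change it. C1qc to C1qa differed by a factor of 1.02. UMIs count molecules and are not scaled by length, so the value of a ratio depends on capture of each transcript. Whether that capture was equal in the 2 libraries was not tested, so its part in the change cannot be told apart.

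The shift in the C1qb to C1qa ratio was present in each microglia-like cluster. It was 0.890 and 0.922 in the CD clusters and between 1.10 (Ch25h cluster) and 1.23 (interferon-induced cluster) in the 4 of Repop D5. The share of other gene pairs that separate the clusters in this way was not computed. At 3000 UMIs per cell, C1qb outnumbered C1qa in 125 of 403 CD cells (31.0%, interval 26.5 to 35.8) but in 305 of 498 cells of Repop D5 (61.2%, 56.8 to 65.5). The reverse held in 64.8% and 31.5%. Outside microglia-like clusters the ratio was 0.907 in the border macrophage-like cells of CD and 1.22 in the monocyte-like cells of Repop D5, on the same side of 1 as in the microglia-like cells of the same library. In the unnamed CD cluster it was 0.970 (0.937 to 1.005), above the interval of the CD microglia-like cells (0.894 to 0.923). In neutrophil-like cells it was 1.06 in CD (0.888 to 1.27) and 1.08 in Repop D5 (0.838 to 1.41).

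**Figure D3:**
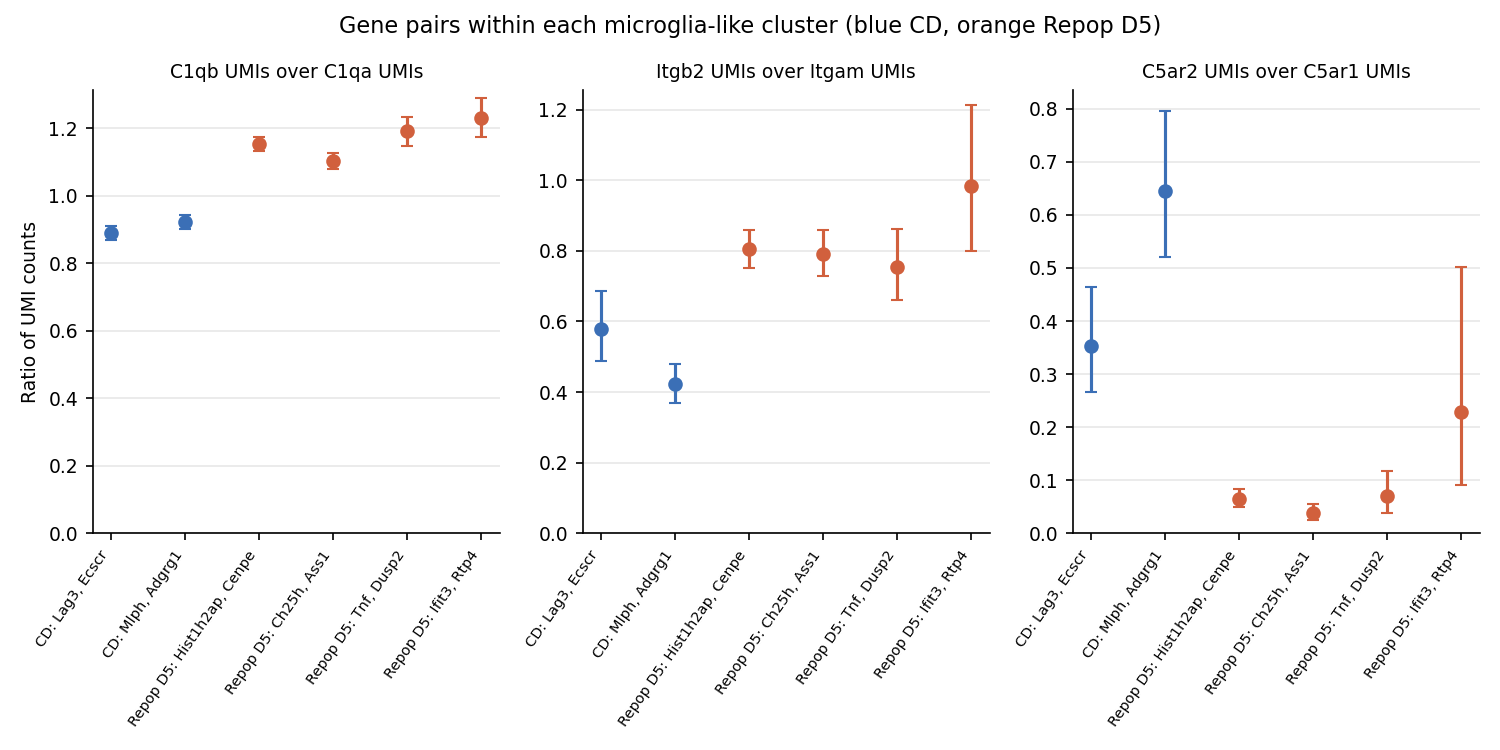
Ratio of the UMI counts of 2 genes within each microglia-like cluster, for CD (blue) and Repop D5 (orange), with exact 95% intervals; clusters on the x axis are named by library and leading genes. C1qb over C1qa is 0.890 to 0.922 in CD and 1.10 to 1.23 in Repop D5, Itgb2 over Itgam is higher in each Repop D5 cluster, and C5ar2 over C5ar1 is lower.

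C1q UMIs were found in every class of cell. All 22 neutrophil-like CD cells with 3000 UMIs had a C1qa UMI after thinning, and so did all 403 microglia-like CD cells, so a share of cells with a UMI says nothing of C1q here. Levels did separate the classes. C1qa stood at 2098 CPM in neutrophil-like CD cells and 2201 CPM in those of Repop D5, cells that are not a known source of C1q, with median depths of 4804 and 5416 UMIs. In CD it stood at 8128 CPM in border macrophage-like cells, 7827 CPM in an unnamed cluster led by MHC class II genes and 2053 CPM in 5 monocyte-like cells. In Repop D5 it stood at 3920 CPM in 46 monocyte-like cells. The neutrophil-like level in CD depended on the clustering, being 5653 to 6562 CPM in 3 alternatives that added a second, deeper cluster to that class. The added cluster held microglia markers at 29951 to 31367 CPM, against 6047 CPM in the neutrophil-like CD cells of the main clustering. Its C1q RNA thus came with abundant microglia marker RNA. The border macrophage-like cluster itself held neutrophil markers at 12414 CPM and microglia markers at 29600 CPM, so its cells carried RNA of several types.

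Genes were ranked by how closely their level followed that of C1q over cells. The measure was Pearson's r of log2(CPM + 100) with the summed chains, over cells outside the border macrophage-, monocyte- and neutrophil-like clusters. In CD, over 465 cells and 2830 genes, the highest included Cst3 (r = 0.72), encoding the protease inhibitor cystatin C, Ctsd (0.70) and Ctss (0.70), encoding cathepsins, and Trem2 (0.67), encoding a lipid-sensing receptor. In Repop D5, over 500 cells and 2357 genes, they were Ctsd (0.63), Olfml3 (0.58), Cst3 (0.58), Trem2 (0.57) and Ctss (0.57). The median r over all genes ranked was 0.01 and -0.04. The points are cells of 1 library each, which share depth and free RNA, and the values are a description. Among themselves, at equal depth in microglia-like cells, the chains had r from 0.40 to 0.51 in CD and from 0.46 to 0.53 in Repop D5.

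C3, the component on which the pathways converge, was scarce in these cells. It had 45 UMIs in CD (7.43 CPM) and 38 in Repop D5 (3.44 CPM), under the 10 CPM asked of a measured gene. Microglia-like cells held 3 of the CD UMIs and 19 of those in Repop D5, or 1.01 and 1.85 CPM, a ratio of 1.82 with an interval of 0.536 to 9.61. A difference in microglia-like cells was not detectable at this depth. In both libraries the level was higher in neutrophil-like cells, at 102 CPM (52.9 to 179) in CD and at 131 CPM (52.5 to 269) in Repop D5. It was also higher in monocyte-like cells, at 153 CPM in CD (61.5 to 315; 7 UMIs in 5 cells) and at 17.5 CPM in Repop D5 (9.06 to 30.6; 12 of the 38 UMIs). Border macrophage-like cells held 19 of the CD UMIs, at 9.01 CPM, but 1.37 to 1.59 CPM when doublets were left out or the complement genes were used in clustering.

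Cfp had the highest ratio of the 9 genes. It encodes properdin, which stabilises the C3-cleaving enzyme of the alternative pathway. Over retained cells it had 115 UMIs in CD (19.0 CPM) and 1750 in Repop D5 (159 CPM), 8.35-fold higher (6.91 to 10.2). Few of the CD UMIs came from microglia-like cells: 12 of 115 (10.4%), against 68 (59.1%) from border macrophage-like cells. In Repop D5, 1636 of 1750 (93.5%) came from microglia-like cells. Microglia-like cells also gave most UMIs of all genes there, 10290523 out of a total of 11037921. For CD the total was 6055886, with 2960361 from microglia-like cells and 2107831 from border macrophage-like cells. The shares of Cfp UMIs thus depend on the size of each class as well as on its Cfp level. Within microglia-like cells Cfp stood at 4.05 CPM in CD against 159 CPM in Repop D5, 39.2-fold higher (22.4 to 76.1).

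Cfp was spread over the whole Repop D5 class. Its level was 121 to 176 CPM in the 4 clusters of Repop D5 and 161 CPM in monocyte-like cells. In the CD clusters it was 3.99 and 4.22 CPM. The share of all genes that separate the clusters in this way was not computed. At 3000 UMIs per cell a Cfp UMI was found in 4 of 403 cells of CD (0.993%, 0.271 to 2.52) but in 180 of 498 of Repop D5 (36.1%, 31.9 to 40.5). At full depth the shares were 2.91% and 83.1%. Neutrophils and monocytes are known sources of properdin, so no class of this sort gives a clean background. Neutrophil-like CD cells, which should hold it, had a UMI in 6 of 22 thinned cells and 128 CPM, and those of Repop D5 had 37.3 CPM from 2 UMIs. In microglia-like cells summed monocyte markers stood at 49.99 CPM in CD against 50.6 CPM in Repop D5. Neutrophil markers stood at 2382 and 857 CPM, and border macrophage markers at 490 and 191 CPM. The part of RNA from these 3 classes in the Cfp level was not tested. The ratio of Cfp ranged from 8.28 to 39.2 over 11 alternatives.

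**Figure D4:**
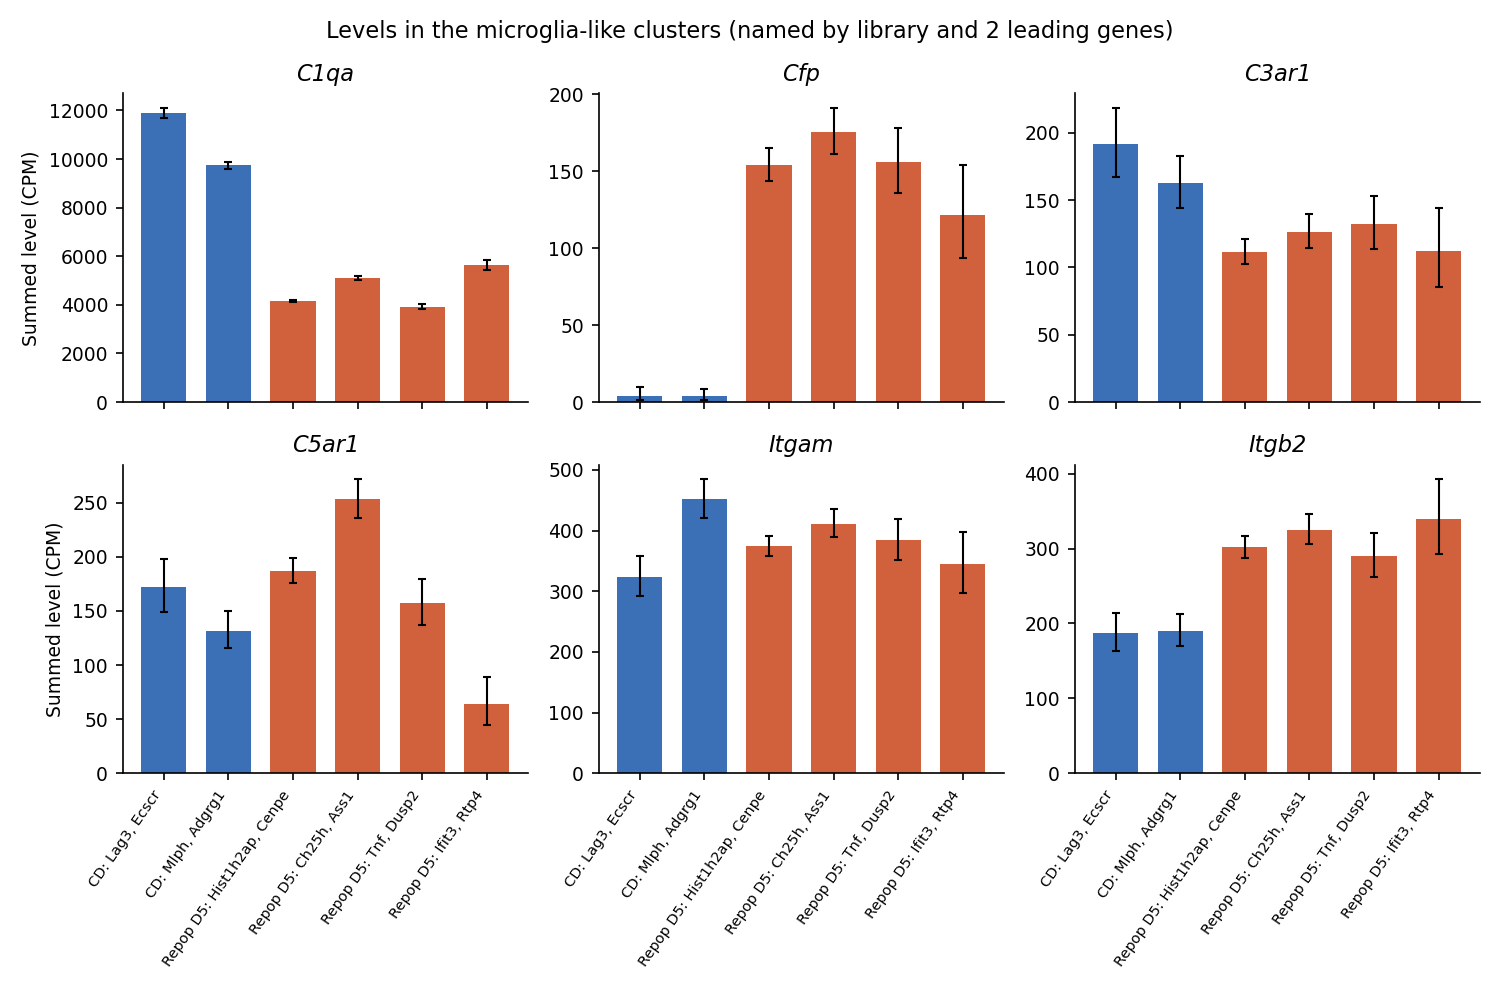
Summed level (CPM, bars from 0, with exact Poisson 95% intervals) of 6 complement genes in the microglia-like clusters of CD (blue) and Repop D5 (orange), each cluster named by library and its 2 leading genes. Cfp is 121 to 176 CPM in each Repop D5 cluster and about 4 CPM in CD, and C5ar1 is 64.3 CPM in the Ifit3 cluster against 157 to 253 CPM in the other 3 of Repop D5.

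C3ar1 and C5ar1, receptors for the peptides released from C3 and C5, did not pass the 1.5-fold limit over retained cells. C3ar1, the receptor for C3a, stood at 181 CPM in CD against 121 CPM in Repop D5, which is a ratio of 0.668 (0.616 to 0.724) just short of the 1.5-fold limit. In microglia-like cells it was 174 and 119 CPM (0.685; 0.618 to 0.761). C5ar1, the receptor for C5a, stood at 179 and 191 CPM over retained cells, a ratio of 1.07 (0.990 to 1.15). In microglia-like cells it stood at 147 and 197 CPM, a ratio of 1.34 (1.21 to 1.49), short of the limit. C3ar1 lay below 1 under each of 11 alternatives and came to 0.917 at the trimmed-mean scaling. C5ar1 changed side, from 0.971 with equal weight per cell to 1.46 at the trimmed mean, and in microglia-like cells it passed the limit there with 1.86, beside 32% of all genes.

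Set against each other, the receptors were in a different ratio. C3ar1 over C5ar1 UMIs was 1.19 in CD microglia-like cells (1.04 to 1.35) and 0.608 in those of Repop D5 (0.565 to 0.652). It was not uniform over Repop D5 clusters. It was 0.50 in the Ch25h cluster, 0.596 in the cell-cycle cluster and 0.842 in the Tnf cluster. In the interferon-induced cluster it was 1.74 (1.13 to 2.72). The last value came with a C5ar1 level of 64.3 CPM (44.8 to 89.4; 35 UMIs), below each other microglia-like cluster, while C3ar1 lay between 111 and 132 CPM in all 4. At 3000 UMIs per cell C3ar1 was found in 40.9% of CD and 30.3% of Repop D5 cells, and C5ar1 in 32.5% and 40.8%. Both receptors were found together in 14.9% and 13.1% of cells, with overlapping intervals (11.6 to 18.7 and 10.2 to 16.3). Neutrophil-like CD cells, a class with little C3ar1, had a C3ar1 UMI in 4 of 22 thinned cells.

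The chains of complement receptor 3 also parted. Itgam, encoding the alpha chain CD11b, stood at 456 CPM in CD against 378 CPM in Repop D5, which is a ratio of 0.830 (0.790 to 0.871). In microglia-like cells it stood at 397 and 386 CPM, a ratio of 0.971 (0.909 to 1.04). Itgb2, encoding the beta chain CD18 that other leukocyte integrins share, stood at 193 and 303 CPM, a ratio of 1.57 (1.47 to 1.68), and at 188 and 309 CPM in microglia-like cells (1.65; 1.505 to 1.81). The direction of Itgam turned with the scaling, to 1.14 at the trimmed mean over retained cells and 1.35 over microglia-like cells. Itgb2 was above 1 under each of 11 alternatives, from 1.49 in cells with at least 1000 genes and under 5% mt- to 2.16 at the trimmed mean. Since cells were sorted on CD11b, Itgam and Itgb2, the gene of its partner chain, describe cells that passed the gate. Ptprc, of the same gate, stood at 202 CPM in CD against 193 CPM in Repop D5 (0.955; 0.890 to 1.03).

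Within libraries, the ratio of Itgb2 to Itgam UMIs was 0.473 in CD microglia-like cells (0.427 to 0.523) and 0.802 in those of Repop D5 (0.765 to 0.841), a factor of 1.70. It was 0.580 and 0.422 in the CD clusters and 0.755 to 0.984 in the 4 of Repop D5. The intervals of the Lag3 cluster (0.489 to 0.686) and the Tnf cluster (0.661 to 0.861) overlapped. How many other gene pairs differ in this way was not computed. The low CD value came with more Itgam in the Mlph cluster, 452 CPM against 323 CPM in the Lag3 cluster, while Itgb2 was 190.5 and 187 CPM. At 3000 UMIs per cell Itgam was found in 60.5% of CD and 63.3% of Repop D5 cells. Itgb2 was found in 41.9% (37.1 to 46.9) and 58.8% (54.4 to 63.2), and both genes in 25.3% (21.1 to 29.9) and 38.8% (34.5 to 43.2). At full depth the shares for Itgam were 76.5% and 94.8%, and for Itgb2 64.3% and 95.6%. No myeloid class should lack either integrin chain, so these shares have no background class. The second row of the symbol Itgam had 51 UMIs in CD and 143 in Repop D5, 8.42 and 12.96 CPM, a ratio of 1.54 (1.11 to 2.16) that passed the limit, on the other side of 1 from Itgam. In microglia-like cells its ratio was 1.18 (0.795 to 1.79).

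**Figure D5:**
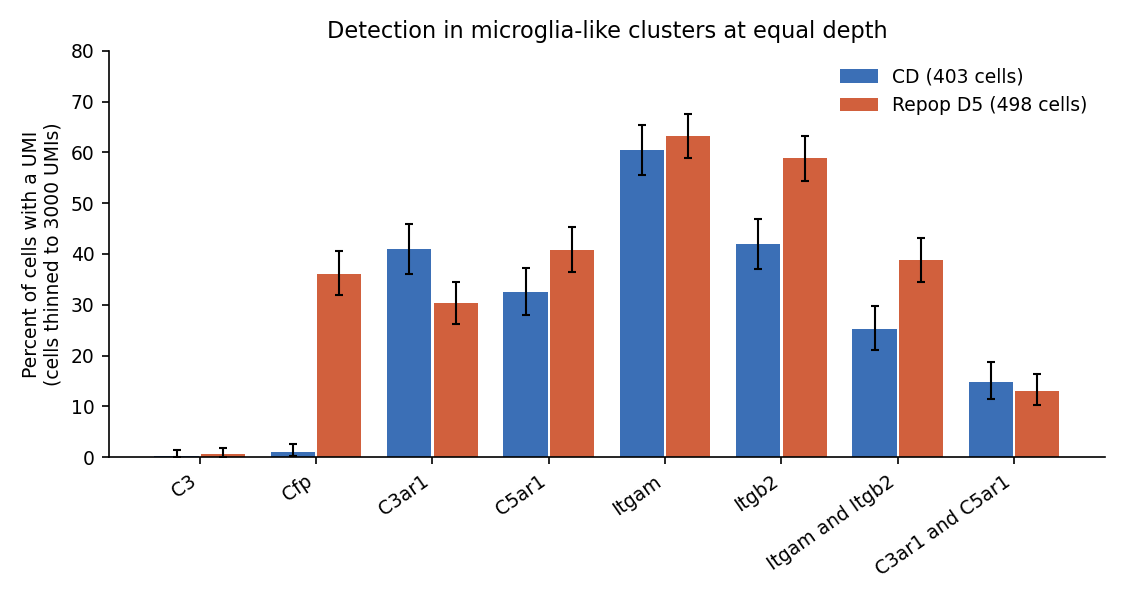
Percent of microglia-like cells with at least 1 UMI of a gene, or of both genes of a pair, after thinning each cell to 3000 UMIs, in CD (blue, 403 cells) and Repop D5 (orange, 498 cells), with exact binomial 95% intervals. Cfp goes from 0.993% to 36.1% and Itgb2 from 41.9% to 58.8%, while Itgam is at 60.5% and 63.3%.

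The rest of the pathway was taken from a list of 54 other complement genes, of which 50 were in the gene file. Of 51 rows, 9 reached 10 CPM over retained cells: 3 were higher, 5 lower and 1 neither, beside the same 16.8% and 42.1% of all genes. No UMI was found for 18 of the rows. The higher genes encode proteins that bind C1q or C3 fragments but have other roles as well. Calr, encoding calreticulin, stood at 594 and 1405 CPM (2.37; 2.28 to 2.45). C1qbp stood at 74.0 and 150 CPM (2.02; 1.82 to 2.25). Itgax, the alpha chain of complement receptor 4, which also pairs with Itgb2, stood at 3.63 and 12.1 CPM (3.34; 2.12 to 5.51). All 3 were higher in microglia-like cells too, and under the trimmed-mean scaling.

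The genes that were lower included a receptor, a regulator and a C3-activating component. C5ar2, the second receptor for C5a, stood at 73.3 CPM in CD against 11.3 CPM in Repop D5, 6.47-fold lower (5.30 to 7.96), and at 74.7 and 11.3 CPM in microglia-like cells. Cr1l, encoding the membrane regulator Crry, stood at 112 and 67.0 CPM (1.68-fold lower), and at 120 and 67.1 CPM in microglia-like cells. Under the trimmed mean Cr1l did not pass the 1.5-fold limit, with a ratio of 0.817, while C5ar2 did with 0.212. Cd93, once described as a C1q receptor, stood at 10.6 and 6.25 CPM (1.69-fold lower). It was not called under the trimmed mean (0.812), and in microglia-like cells it had 3 and 31 UMIs, 1.01 and 3.01 CPM, with a ratio of 2.97 (0.927 to 15.2). C4b, encoding C4, had 125 UMIs in CD and 9 in Repop D5, 20.6 and 0.815 CPM. Of the CD UMIs 80.0% came from border macrophage-like cells, a name given to 0 cells of Repop D5. Border macrophage markers still stood at 1145 CPM in the monocyte-like cells of Repop D5. Microglia-like cells held 12 C4b UMIs in CD and 8 in Repop D5. C4b shares near-identical sequence with C4a, so its count is uncertain. Lrp1, which binds C1q among many ligands, was neither higher nor lower (260 and 236 CPM), and its ratio of 0.908 turned to 1.25 under the trimmed mean.

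The receptors for C5a thus stood in a different proportion. C5ar2 over C5ar1 UMIs was 0.508 in CD microglia-like cells (0.430 to 0.599) and 0.0573 in those of Repop D5 (0.0471 to 0.0692), 8.86-fold lower. It was 0.353 and 0.645 in the CD clusters and 0.0380 to 0.0698 in 3 of the Repop D5 clusters. In the interferon-induced cluster it was 0.229 (0.0916 to 0.502), from 8 and 35 UMIs, an interval that overlaps that of the Lag3 cluster in CD. For this pair too, the number of other gene pairs that differ likewise was not computed.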

How the data were processed

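Per the labels, CD11b+/CD45+ brain cells were sorted and sequenced as 1 10x Genomics library per group. Per the submitters' processing notes, the authors used mm10 and Cell Ranger 2.1.0. Which annotation they used, and how barcodes were called as cells, is not given in the sources used here. The deposited matrices hold raw UMI counts, made by the authors. The matrix of each library was used, and the deposited pooled matrix served as an alternative. Of the barcodes, 1 occurs in both libraries.

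The filter kept cells with 500 genes or more and less than 10% mt- UMIs. Scrublet marked 3 CD and 12 Repop D5 cells as doublets, which stayed in. UMIs were summed per library and scaled to CPM. Ratios have exact conditional binomial intervals, levels exact Poisson ones and shares exact Clopper-Pearson ones, at 95%, for counting error only. A floor of 3 counts equals 0.495 CPM for CD and 0.272 CPM for Repop D5.

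Cells were clustered with scanpy 1.11.5 (Python 3.11.15) by the Leiden method at resolution 1, on 15 neighbours in 30 principal components of 2000 variable genes, as log counts per 10000, without the complement genes and with no correction between libraries. A cluster with 3 markers of another class among its 10 leading genes took that name, and one with 2 stayed unnamed. Others were microglia-like if 3 microglia markers reached 50 CPM. Every cluster met that level, with 11 of 12 markers in the neutrophil-like cluster and 8 of 12 in the endothelial-like one. The level thus set no cluster apart, and the name stands for clusters without the leading markers of another class. This naming rule and the microglia-like set were chosen after the clusters were seen. No cluster had a microglia marker among its leading genes, and no microglia-like cluster had one of another class. For shares of cells, cells were thinned to 3000 UMIs, as the median of 20 draws, which left out 10 CD cells. The ratio interval was tested on simulated Poisson counts. These hold counting error alone, so that test does not cover spread between cells or mice.

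Every one of the 9 genes is named. From the wider complement list, those at 10 CPM with the 2 highest ratios, the 2 lowest and the 6 most abundant are named, with Ptprc and the 5 genes per library most correlated with C1q. Some genes that this rule selects are counted but not reported here by name. The genes and lists were chosen with earlier results of these data known. Alternatives were other cell filters, scalings, weights, depths, minimums, folds and clusterings.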

Additional observations from a re-analysis of the deposited data

Results flagged for a closer look

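The C1q genes had ratios on opposite sides of 1 in 2 named classes of cells. In monocyte-like cells (5 in CD, 46 in Repop D5) the ratio of Repop D5 to CD was 1.91 for C1qa (1.55 to 2.37), 2.48 for C1qb (2.01 to 3.11) and 1.86 for C1qc (1.48 to 2.38), while in microglia-like cells the ratios were 0.426, 0.537 and 0.450. The difference was not tested, since each group is 1 library. Summed monocyte markers stood at 11749 CPM in the 5 CD cells and 1467 CPM in the 46 of Repop D5. Microglia markers stood at 6420 and 8487 CPM, and border macrophage markers at 830 and 1145 CPM. The cells under that name were thus unlike in marker level. Their part in the result was not tested. C1qa stood at 2053 CPM in the 5 CD cells, near the 2098 CPM of neutrophil-like CD cells, which are not a known source of C1q. The class also depended on the clustering. At Leiden resolution 2 it held 11 cells of Repop D5, and a cluster of 47 Repop D5 cells with Ccr2 among its leading genes was named microglia-like.

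Itgb2 had a ratio of 0.393 (0.148 to 0.888) in neutrophil-like cells, from 39 UMIs in 23 CD cells and 7 UMIs in 7 Repop D5 cells, against 1.65 in microglia-like cells. C5ar1 had a ratio of 0.285 (0.0996 to 0.670) in the same neutrophil-like cells, from 46 and 6 UMIs, against 1.34 in microglia-like cells, a value short of the 1.5-fold limit. Neither difference was tested.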

How the results depend on the processing

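Each group is 1 library, so no alternative measures the spread between mice. Low counts limit genes such as C3 and C4b and the small clusters. The number of the 9 genes called higher was 2, but 1 in cells with at least 1000 genes and under 5% mt- and 1 at a fold of 2, where Itgb2 was lost. The number called lower was 3, but 0 under the trimmed-mean scaling, and between 2 and 4 in the others. Of the other complement genes 5 were lower. There were 3 in cells outside the border macrophage-, monocyte- and neutrophil-like clusters, 3 with totals without mt- and ribosomal protein genes, 3 at a minimum of 50 CPM and 3 in microglia-like clusters (chosen after seeing the data). There were 2 under the trimmed mean, 2 at a fold of 2 and 12 with no minimum. The share of all genes called lower also moved with the setting. It was 42.1% in the main setting, 21.7% under the trimmed mean and 40.2% in microglia-like clusters. The share called higher was 16.8% in the main setting and 30.2% under the trimmed mean. For the other settings these shares are not given here, so the counts say nothing particular to complement genes. Directions turned for C5ar1 (0.971 to 1.46), Itgam (0.721 to 1.14) and C3 (0.453 to 1.82), with ranges over 11 alternatives, and for no other of the 9 genes there. Ratios of C1qa ranged from 0.426 to 0.671, C1qb from 0.537 to 0.841, C1qc from 0.450 to 0.684 and C3ar1 from 0.649 to 0.917. At Leiden resolution 2 no cluster was named border macrophage-like, and monocyte-like C1qa in Repop D5 was 3173 CPM. No paired analysis was possible because each group has 1 library.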

Other observations

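The filter on cells removed 32 barcodes of Repop D5. They had a C1q level of 15220 CPM over the 3 chains, against 13236 CPM in the retained cells, and a C1qb to C1qa ratio of 1.04 (0.968 to 1.12), between the values of the CD and Repop D5 libraries.

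Of the complement genes below 10 CPM in both libraries, C2 and Fcna had most of their CD UMIs in border macrophage-like cells. That name went to 0 cells of Repop D5. C2, Fcna and Cd93 were chosen after their values were seen. C2, a protease component of the classical pathway, had 37 of its 43 CD UMIs there (86.0%), and Fcna, encoding ficolin A, 52 of 59 (88.1%). Each had 6 UMIs in Repop D5. Cd93, at 10.6 CPM in CD, had 42.2% of its CD UMIs there. It had 31.9 CPM in the unnamed CD cluster and 52.6 CPM in the monocyte-like cells of Repop D5, against 1.01 and 3.01 CPM in microglia-like cells.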
